A study of Mus musculus with 8 samples.

Results

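The cyclic nucleotide phosphodiesterases described here are 10 genes, Pde1a, Pde1b, Pde1c, Pde2a, Pde4a, Pde4b, Pde4d, Pde7b, Pde8b and Pde10a, of the 18939 genes in the table of counts. Their rows were found by gene symbol, and for a gene listed with several transcripts the row with the highest total over all libraries was used. All 10 were present in every library, with 352 to 28641 counts per library. The libraries hold ribosome-bound RNA of neurons of the paraventricular nucleus of the thalamus (PVT) that express the mu opioid receptor (MOR), purified by Translating Ribosome Affinity Purification (TRAP). In this method a ribosomal protein fused to EGFP (EGFP-L10a) is pulled down with an antibody against GFP, and the RNA carried by the ribosomes is sequenced. Every mouse was OPRM1cre X EGFP-L10a on a C57Bl/6J background, aged 8 to 12 weeks, so that Cre made from the Oprm1 gene switched on EGFP-L10a from the Rosa26 locus. The morphine group (4 libraries, replicates 3, 4, 7 and 8) drank morphine in 0.2% saccharin for 11 days, at 0.3 mg/ml to begin with and 0.5 mg/ml at the end, and the control group (4 libraries, replicates 1, 2, 5 and 6) drank saccharin alone, which the labels call control drinking water. Gross dissections aimed at the PVT were, by the methods, pooled from 2 same-sex mice per library, with 2 male and 2 female libraries per group by the labels. Cre follows Oprm1 in any cell that used the gene by then, so MOR+ cells in tissue next to the PVT could also be purified.

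Phosphodiesterases break down cAMP and cGMP, the messengers that adenylyl and guanylyl cyclases make, and so end signals through protein kinase A and protein kinase G. MOR couples to inhibitory G proteins that hold back adenylyl cyclase, and long opioid exposure is known for a rebound of cAMP signalling in several brain regions. The PDE1 enzymes are activated by calcium and calmodulin and degrade both messengers, PDE2A is switched on by cGMP and also degrades both, PDE4, PDE7 and PDE8 enzymes are selective for cAMP, and PDE10A degrades both and is known for its abundance in the projection neurons of the striatum. PDE4 enzymes are the targets of rolipram, and PDE4D is known to be carried to activated receptors by beta-arrestin.

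Total counts were 37081346 to 43311792 in the control libraries and 31151106 to 47582947 in the morphine libraries. All 8 thalamic marker genes on the list used here, among them Tcf7l2 and Slc17a6, were in the table, and their summed level was 2559 to 3320 CPM (counts scaled to the TMM-normalized library total) in the control libraries and 1992 to 3313 CPM in the morphine libraries. The fold change was above 0 for 0 of the 8, with a median log2 fold change of -0.28. By edgeR, 1 was lower at an unadjusted P value under 0.05, which 12.1% of all genes had in either direction, and 0 were called. With 1 of 8 the share is near the background, and the part of these differences in the members' levels was not tested. Control replicate 5, labelled female, held 2072 counts of 4 Y-linked genes, between the 4240 to 6145 of the male libraries and the 1 to 2 of the other female libraries, and 66 counts of Xist, within the 45 to 170 of the other female libraries and against 0 in every male library. Its counts thus do not match a pool of female mice alone, and results by sex are given with and without it. Nothing states that the sample numbers mark a batch, and no sequencing batch is given.

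The comparison of morphine with control libraries asks whether levels of these enzymes in MOR+ PVT neurons differed after 11 days of morphine intake. None of the 10 genes passed edgeR's quasi-likelihood test at an adjusted P value under 0.05 (0 of 10, against 0.195% of all 18939 genes), and 0 of 10 had an unadjusted P value under 0.05, which 12.1% of all genes had. DESeq2 called 0 of 10 members, against 3.29% of the 15260 genes to which it gave an adjusted P value, and found 0 at an unadjusted P value under 0.05. The fold change was above 0 on the log2 scale for 6 members and below 0 for 4, with a median log2 fold change of 0.089 beside 0.0088 over all genes. Adjusted P values (edgeR) ran from 0.416 to 0.916. For each member the morphine and control libraries overlapped (0 of 10 without overlap, against 6.55% of all genes).

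**Figure D1:**
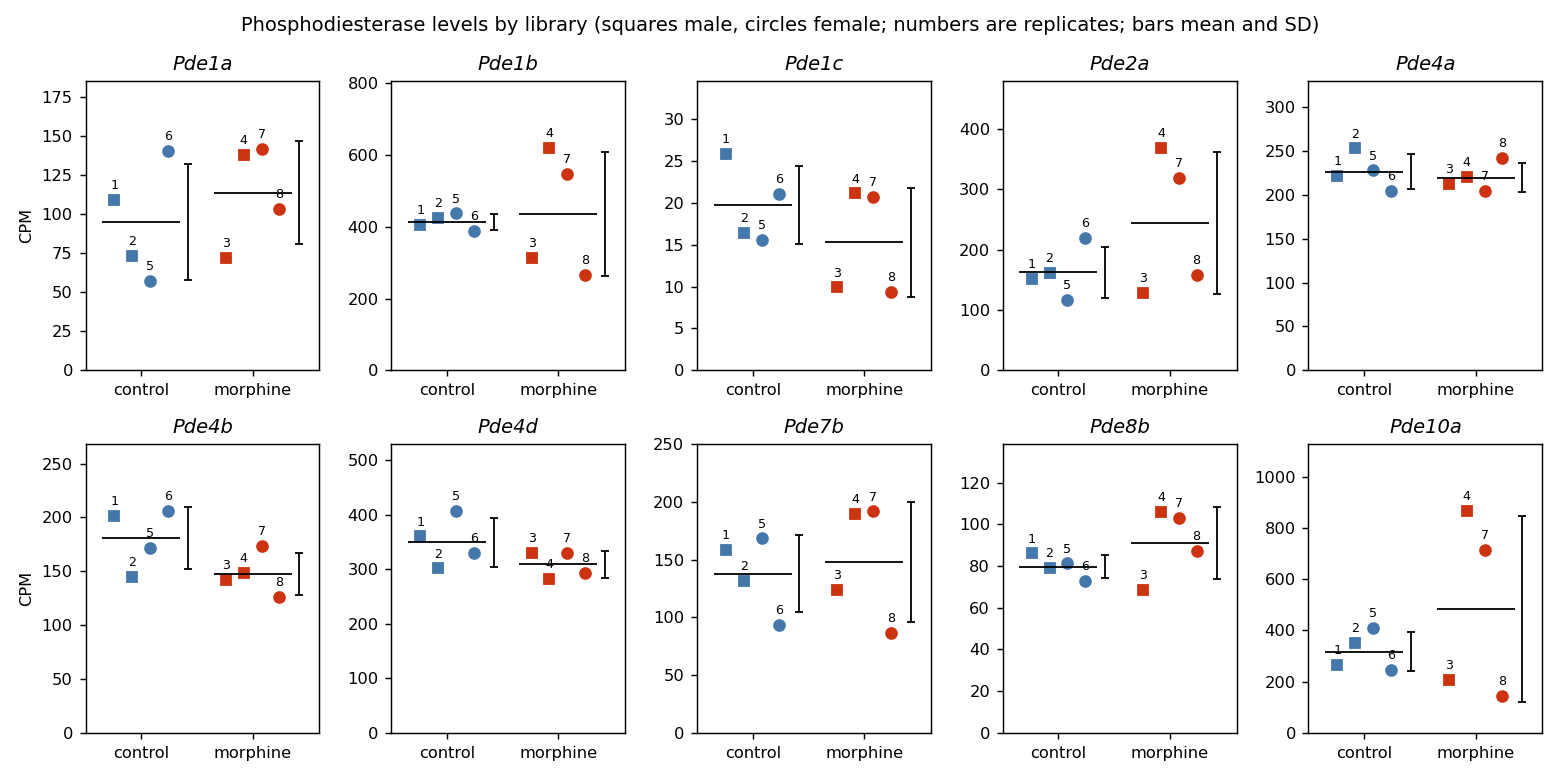
Level of each phosphodiesterase in CPM (vertical axes, from 0) in the 4 control and 4 morphine libraries, with 1 point per library, numbered by replicate, horizontal lines for group means and bars for the SD. The morphine libraries of Pde10a lie between 145.6 and 867 CPM and those of Pde4a between 204.4 and 242.2 CPM.

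The spread between libraries set the members apart from each other. Over the 9372 genes with a mean of at least 10 CPM, the median SD of log2 CPM within the groups was 0.17, and the median over the 10 members was 0.45. Pde10a lay at the 99.4th percentile of this spread, Pde2a at the 98.4th, Pde1a at the 97.6th, Pde1c at the 97.4th, Pde7b at the 96.9th and Pde1b at the 95.7th. Pde8b lay at percentile 70.6, Pde4b at 70.2, Pde4d at 43.4 and Pde4a at 21.9. The 3 genes of the PDE4 family were thus the ones whose libraries lay closest together, with Pde8b beside Pde4b.

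**Figure D2:**
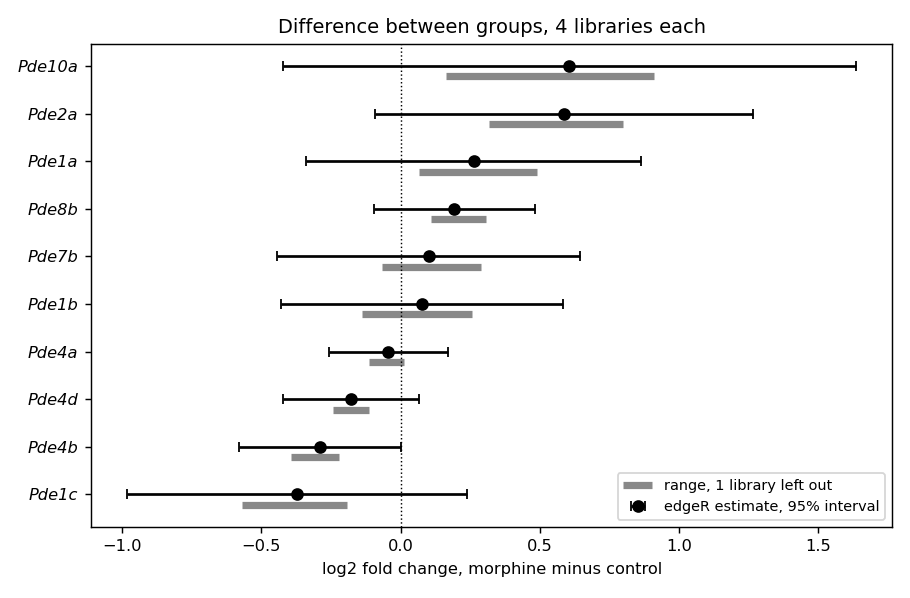
Log2 fold change of each member, morphine minus control, from edgeR (points) with 95% confidence intervals (thin lines), and the range of the estimate when each of the 8 libraries was left out in turn (grey bars). The widest interval is that of Pde10a, from -0.42 to 1.64, and the narrowest that of Pde4a, from -0.26 to 0.17.

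Among the PDE4 genes, Pde4b (chr4:102087332-102607275, plus strand) had the lowest P value of all members. Its level was 201.3, 144.6, 171.3 and 205.7 CPM in control replicates 1, 2, 5 and 6, and 142.3, 148.9, 173.6 and 126.4 CPM in morphine replicates 3, 4, 7 and 8. The lowest library was a morphine library and the highest a control library, but control replicate 2 lay below 2 of the morphine libraries and morphine replicate 7 above 2 of the control libraries. The means were 180.7 ± 28.5 CPM and 147.8 ± 19.6 CPM (SD, n = 4 each). The log2 fold change was -0.29 (SE 0.13), with an edgeR P value of 0.0511 before and 0.416 after adjustment over all genes. As a fold this was 0.818, with a 95% confidence interval of 0.668 to 1.00, and an exact two-sided permutation test over the 70 arrangements of the libraries gave P = 0.143, where the smallest possible value is 0.0286.

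Pde4d (chr13:108654177-109955969, plus strand) was at 360.2, 301.5, 407.1 and 330.7 CPM in the control libraries and at 329.9, 283.0, 330.8 and 293.9 CPM in the morphine libraries. The groups overlapped, with 407.1 CPM in control replicate 5 above all others. The log2 fold change was -0.18 (SE 0.11, edgeR adjusted P = 0.573) and the 95% confidence interval of the fold was 0.746 to 1.05. Pde4a (chr9:21165700-21213248, plus strand) was the steadiest member, at 221.3, 253.0, 228.0 and 204.2 CPM in the control libraries and 212.3, 220.3, 204.4 and 242.2 CPM in the morphine libraries. The morphine libraries lay within the control range, and the fold of 0.970 had a 95% confidence interval of 0.836 to 1.13 (edgeR adjusted P = 0.884). Its log2 fold change changed sign, to 0.013, without control replicate 2.

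The promoters of the members were searched for the cAMP response element, the sequence that CREB binds, and held it no more often than promoters at large. Of 31 promoter windows that RefSeq lists for the 10 members on GRCm38.p6, each from 250 bases before to 50 bases after a start, 0 held the whole palindrome TGACGTCA, which is in 1.79% of all 32851 such windows. The core TGACG, on either strand and counted also where it is part of the palindrome, was in 5 of the 31, of Pde1a, Pde2a, Pde4a, Pde4b and Pde8b, a share of 16.1% beside 20.8% of all windows. The 3 matches whose 30-base surroundings lie wholly before the start are printed here to show what such a match looks like in Pde4b, Pde4a and Pde1a. They read 5′ to 3′ on the gene's strand, with the core in capitals, which reads CGTCA where TGACG lies on the other strand.
Pde4b, chr4:102421509-102421538: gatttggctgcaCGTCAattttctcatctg
Pde4a, chr9:21184039-21184068: ggcacagctcgaCGTCAggctggggaggag
Pde1a, chr2:80039051-80039080: gtaacttcagccCGTCAttcctcagtaatt
The core ends 29 bases before the start in Pde4b, 45 bases in Pde4a and 161 bases in Pde1a, in each case at 1 of several starts listed for the gene (1 of 4, 1 of 3 and 1 of 4). A match is a description of the letters, and its use in these neurons was not measured.

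The calcium-activated PDE1 genes differed in their level and in how much they varied. Pde1b (chr15:103503034-103530056, plus strand) was at 404.3, 424.3, 437.4 and 387.5 CPM in the control libraries, a range of 1.13-fold, and at 312.9, 619.9, 547.2 and 265.9 CPM in morphine replicates 3, 4, 7 and 8, a range of 2.33-fold. Every control library lay between the morphine pair of replicates 4 and 7 above and the pair of replicates 3 and 8 below. The group means were nearly equal, 413.4 ± 21.96 CPM and 436.5 ± 173.5 CPM (SD, n = 4 each), and the log2 fold change was 0.078 (SE 0.23, edgeR adjusted P = 0.916). It fell to -0.14 without morphine replicate 4 and to -0.066 without morphine replicate 7.

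Pde1a (chr2:79834453-80196522, minus strand) was at 108.8, 73.0, 57.0 and 140.0 CPM in the control libraries and at 71.6, 137.9, 141.5 and 103.3 CPM in the morphine libraries. Low and high libraries occurred in both groups, and the log2 fold change was 0.26 (SE 0.27, edgeR adjusted P = 0.711). Pde1c (chr6:56069798-56652510, minus strand), the member with the fewest counts, was at 25.8, 16.5, 15.6 and 21.1 CPM in the control libraries and at 9.9, 21.1, 20.7 and 9.4 CPM in the morphine libraries. Morphine replicates 3 and 8 lay below all controls, while replicates 4 and 7 lay within the control range. The log2 fold change of Pde1c was -0.37 (SE 0.28, edgeR adjusted P = 0.635).

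Pde2a (chr7:101421691-101512829, plus strand), the enzyme that cGMP activates, was at 151.1, 160.8, 117.0 and 219.6 CPM in the control libraries and at 128.4, 367.9, 318.7 and 158.6 CPM in morphine replicates 3, 4, 7 and 8. Replicates 4 and 7 were the highest of all libraries, and replicates 3 and 8 lay within the control range. The means of 162.1 ± 42.7 CPM and 243.4 ± 117.7 CPM (SD, n = 4 each) gave a fold of 1.501 with a 95% confidence interval of 0.938 to 2.40. The edgeR P value was 0.0839 before and 0.493 after adjustment. Exons of Pde2a share sequence positions with Gm45837, a predicted gene on the same strand, which had no row of its own in the counts, so reads of the pair cannot be told apart.

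The cAMP-selective Pde7b and Pde8b had smaller differences. Pde7b (chr10:20397052-20725078, minus strand) was at 158.7, 131.3, 168.4 and 93.6 CPM in the control libraries and at 123.5, 189.7, 191.9 and 86.9 CPM in the morphine libraries. Replicates 4 and 7 were again the highest, and replicate 8 the lowest of all. The log2 fold change was 0.10 (SE 0.25, edgeR adjusted P = 0.896), with values below 0 in 3 of the 8 fits that left out a library (lowest -0.068, without morphine replicate 7, with -0.042 without morphine replicate 4 and -0.068 without control replicate 6).

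Pde8b (chr13:95024105-95250401, minus strand) was at 86.0, 78.9, 81.2 and 72.9 CPM in the control libraries and at 68.5, 105.9, 103.1 and 87.3 CPM in the morphine libraries. In this gene 3 of the 4 morphine libraries lay above all controls and replicate 3 lay below them. The fold was 1.14 (95% confidence interval 0.935 to 1.40, edgeR adjusted P = 0.601). An antisense gene, Gm48420, overlaps its exons, and the counting is not stated to use the strand.

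Pde10a (chr17:8525187-8986648, plus strand) had the largest spread of the members, and a log2 fold change of 0.61 (SE 0.47) that ranged from 0.16 without morphine replicate 4 to 0.91 without morphine replicate 8. Its level was 264.1, 350.3, 408.4 and 247.3 CPM in control replicates 1, 2, 5 and 6, and 206.6, 867, 714 and 145.6 CPM in morphine replicates 3, 4, 7 and 8. Within the morphine group the highest library was 5.95-fold above the lowest, compared with 1.65-fold within the control group. Replicates 4 and 7 were at 2.73 and 2.25 times the control mean and replicates 3 and 8 at 0.651 and 0.459 times, so that all 4 morphine libraries lay outside the control range, on both sides of it. The means were 317.5 ± 75.5 CPM and 483.3 ± 361.1 CPM (SD, n = 4 each), the fold was 1.52 with a 95% confidence interval of 0.746 to 3.11, and the edgeR adjusted P value was 0.647. An exact two-sided permutation test gave P = 0.714.

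Morphine replicates 4 and 7 were the top pair of all 8 libraries for 5 of the 10 members, Pde10a, Pde1b, Pde7b, Pde2a and Pde8b, an order that was noticed in these values. The same pair was on top for 653 of the 9372 genes with a mean of at least 10 CPM (6.97%). It was also on top for 6 of 7 markers of striatal projection neurons (Drd1a, Adora2a, Ppp1r1b, Gpr6, Rgs9 and Rarb, but not Six3). Of these, Drd1a and Adora2a encode the dopamine and adenosine receptors that mark the direct and indirect pathway neurons, and Ppp1r1b encodes DARPP-32, an inhibitor of protein phosphatase under the control of cAMP. The summed level of the 7 markers was 196.8, 310.6, 263.4 and 149.5 CPM in the control libraries and 116.7, 762, 638 and 63.8 CPM in morphine replicates 3, 4, 7 and 8. None of the 7 was at 0 in any library, though Adora2a was at 79.4 CPM in morphine replicate 4 and 0.288 CPM in morphine replicate 8.

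The order of the libraries in Pde10a was that of the striatal marker sum at its top and at its bottom, with morphine replicates 4 and 7 highest and replicate 8 lowest. Once the mean log2 CPM of the 7 markers was a term of the model, the estimate for Pde10a went from 0.61 (SE 0.47) to 0.21 (SE 0.11), that of Pde1b from 0.078 to -0.026 (SE 0.095), that of Pde7b from 0.10 to 0.026 and that of Pde2a from 0.59 to 0.43. Pde1c moved away from 0, from -0.37 to -0.50 (SE 0.21), Pde1a went from 0.26 to 0.22 and Pde8b from 0.19 to 0.18. The fold changes of Pde4a, Pde4b and Pde4d were -0.045, -0.30 and -0.18 in that model, and none of the 10 passed the adjusted threshold (edgeR, lowest adjusted P = 0.381, 2 of 10 with an unadjusted P value under 0.05, against 11.9% of all genes in that model). The part that striatal tissue in the dissections has in these levels was not tested. In such bulk libraries, fewer cells of a type and less RNA per cell cannot be told apart.

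**Figure D3:**
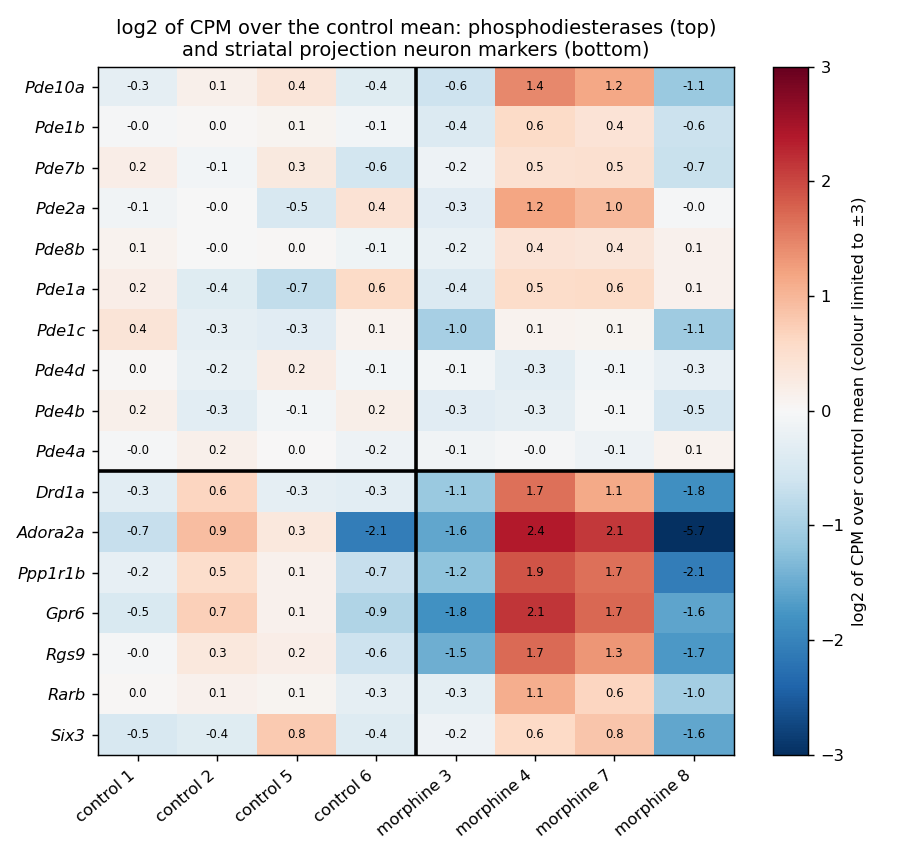
Log2 ratio of the CPM in each library (columns) to the control mean, for the 10 phosphodiesterases (upper rows) and 7 markers of striatal projection neurons (lower rows). Pde10a, Pde1b, Pde7b, Pde2a and Pde8b are highest in morphine replicates 4 and 7, as are 6 of the 7 markers, and none of the 3 PDE4 rows is.

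Genes with the most similar course over the 8 libraries were sought among 12989 genes with a mean of at least 1 CPM, by the Pearson correlation of log2 CPM. Pde1b was most like Rgs9 (r = 0.986), Ppp1r1b (r = 0.982) and Rxrg (r = 0.980), 2 of which are on the list of striatal markers. Pde10a was most like Ido1 (r = 0.988), Tbc1d8 (r = 0.984) and Dach1 (r = 0.983), and Pde7b was most like Gnal (r = 0.977), which encodes the stimulatory G protein subunit that couples striatal dopamine and adenosine receptors to adenylyl cyclase. C230081A13Rik (r = 0.937) was also among the 3 genes most like Pde7b. Among the members, Pde10a and Pde1b had r = 0.976, Pde10a and Pde7b r = 0.858, and Pde1a and Pde2a r = 0.842, whereas Pde10a had r = 0.166 with Pde4b and -0.062 with Pde4d. These values rest on 8 libraries of unequal depth that all genes share, and they are given as a description.

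The PDE4 genes had other partners. Pde4b was most like Csnk1d (r = 0.991), Ralgps1 (r = 0.983) and Taf6l (r = 0.979), Pde4d most like E130308A19Rik (r = 0.993), Uevld (r = 0.987) and 3830431G21Rik (r = 0.974), and Pde4a most like T2 (r = 0.969), Rell2 (r = 0.967) and Trpm2 (r = 0.966). For Pde1a they were Pabpc4 (r = 0.989), Syne2 (r = 0.967) and Pgpep1 (r = 0.941), for Pde1c Rab11fip4 (r = 0.983), Cited4 (r = 0.981) and Ppp1r12b (r = 0.980), for Pde2a Scmh1 (r = 0.983), Synpo (r = 0.971) and Med13l (r = 0.970), and for Pde8b Pmm2 (r = 0.984), Rimbp3 (r = 0.964) and 1110038F14Rik (r = 0.950). None of the genes named here as most alike was called between morphine and control by edgeR.

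Further marker lists are given because their sums were higher in most morphine libraries, so counts of higher genes in them are a description. No gene of either was called by edgeR. The 10 markers of telencephalic pyramidal neurons, such as Neurod6, Tbr1 and Slc17a7, summed to 303.6 to 579 CPM in the control libraries, highest in control replicate 6, and to 460.4 to 846 CPM in the morphine libraries, highest in replicate 4, with overlap and with none at 0. Of the 10, 5 higher and 1 lower had an unadjusted P value under 0.05 (edgeR, against 12.1% of all genes in either direction). The lower one was Cux2, at 130.4 ± 4.21 and 104.1 ± 10.2 CPM. Pde1a, Pde2a and Pde4b were also highest in replicate 6 among the controls. A model with the score of this list moved the log2 fold change of Pde1a from 0.26 to -0.50 (SE 0.32), that of Pde2a from 0.59 to -0.26 (SE 0.42), that of Pde1b to -0.10 and that of Pde4a to 0.062. It moved Pde1c from -0.37 to -0.74, Pde4b from -0.29 to -0.46, Pde7b from 0.10 to 0.45, Pde10a from 0.61 to 0.31, Pde8b from 0.19 to 0.13 and Pde4d from -0.18 to -0.052, with all adjusted P values at or above 0.706 (edgeR). The 9 choroid plexus markers summed to 35.5 to 104.3 CPM in the control and 123.9 to 388 CPM in the morphine libraries, without overlap. Most of each morphine sum was Ttr, so the separation of the sums rests largely on this gene. Ttr was at 0.949, 13.4, 9.25 and 44.5 CPM in the control and 105.0, 219.4, 69.9 and 301.9 CPM in the morphine libraries. The fold change was above 0 for 8 of the 9 markers and below 0 for Prlr (log2 -0.41, edgeR adjusted P = 0.431). Of these 9, 7 higher and 0 lower had an unadjusted P value under 0.05 (edgeR, against 12.1% of all genes in either direction). Of the 9, 1, Kcnj13, was at 0 in 1 control library. In a model with their score, Pde10a had a log2 fold change of 0.97 (SE 0.81) and Pde7b of 0.80 (SE 0.34), Pde1b was at 0.27, Pde8b at 0.30, Pde2a at 0.34, Pde1a at 0.044, Pde1c at -0.054, Pde4a at -0.088, Pde4b at -0.18 and Pde4d at -0.00020, and the edgeR adjusted P value was 1 for all 10. Both scores ran partly with the groups, so these models cannot well separate score from morphine. The part of either tissue in the members' levels was not tested.

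Levels of different genes were compared per kilobase of the transcript used, which divides CPM by a length between 2.524 kb for Pde4a and 8.766 kb for Pde1c. In the control libraries Pde4d (137.0 ± 17.6 CPM per kb, SD, n = 4) and Pde1b (128.5 ± 6.82) were highest, followed by Pde4a (89.8 ± 8.03). Pde4b (41.99 ± 6.63), Pde10a (40.9 ± 9.72), Pde2a (40.8 ± 10.7) and Pde7b (33.4 ± 8.10 CPM per kb) formed a middle group. Pde1a (22.2 ± 8.73), Pde8b (19.8 ± 1.35) and Pde1c (2.25 ± 0.537 CPM per kb) were lowest. Neighbours in this order overlapped in their control libraries except for Pde1b above Pde4a, Pde4a above Pde4b and Pde8b above Pde1c. The order rests on the transcript used. For Pde4a, NM_183408 of 4653 bases had 97.0% to 97.5% of the counts of the used transcript in the control libraries. For Pde1c, NM_001159952 of 3068 bases had the same counts as the used transcript. With those lengths the level would be lower for Pde4a and higher for Pde1c, so their gaps to neighbours depend on this choice. When the counts of all listed transcripts per kilobase were summed, in which shared reads count several times, Pde4b was at 267.4, Pde2a at 195.9, Pde4a at 137.2, Pde1a at 109.3, Pde8b at 37.9 and Pde1c at 27.6 CPM per kb, and Pde4b led the order. Pde4d is listed with a single transcript of 2554 bases.

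**Figure D4:**
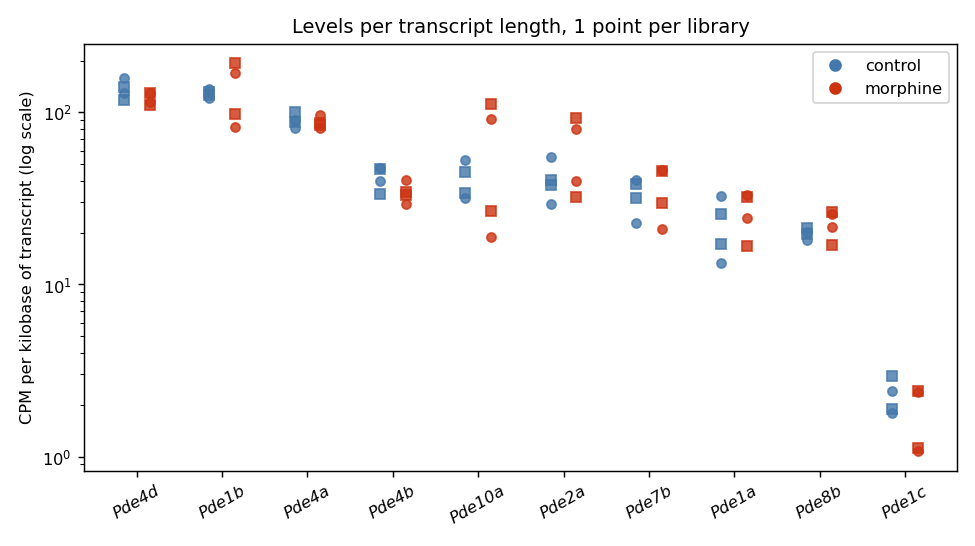
Level of each member in CPM per kilobase of transcript (log scale), 1 point per library, control in blue and morphine in red, squares male and circles female by the labels, ordered by the control mean. Pde4d and Pde1b lead the order in the control libraries at means of 137.0 and 128.5, and Pde1c is last at 2.25.

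As shares of the summed level per kilobase of the 10 members, Pde4d made up 21.9% to 27.3% in the control libraries and 15.05% to 27.6% in the morphine libraries. Pde10a made up 5.88% to 9.01% in the control libraries, but 15.2% and 13.1% in morphine replicates 4 and 7 and 5.69% and 4.17% in replicates 3 and 8. In replicate 4, therefore, Pde10a and Pde4d had nearly equal shares, whereas in replicate 8 Pde4d had 25.6%.

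Several rows were listed for 6 of the 10 members, 30 transcripts in all, and reads shared between them appear in the counts of every transcript they fit. Of the 20 transcripts not used, 18 had counts other than the used one. For 1 of these 18 the ratio to the used transcript did not overlap between the groups. The share was 6.21% over the 3593 such transcripts of genes whose used transcript had at least 100 counts in every library. The 1 transcript was of Pde4a, where NM_183408 had 97.0% to 97.5% of the counts of NM_019798 in the control libraries and 99.2% to 100.3% in the morphine libraries. The difference in counts between them was 260, 285, 264 and 188 in the control libraries and 26, 56, -20 and 83 in the morphine libraries, so the ratio rests on few reads out of 6295 to 11784. With 1 of 18 the share is near the background and is given without a test.

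The remaining transcripts kept overlapping ratios. In Pde1a, NM_001009978 and NM_001009979 had equal counts, at 39.9% to 43.2% of NM_016744 in the control and 39.9% to 44.8% in the morphine libraries. In Pde4b, the short NM_001177983 of 1374 bases had 9.04% to 9.97% of the counts of NM_019840 in the control and 8.22% to 9.68% in the morphine libraries. NM_001177982 of 1923 bases had 89.7% to 90.7% in the control and 90.2% to 91.7% in the morphine libraries. With shared reads counted on each, the counts do not assign reads to long or short transcripts. In Pde1c, NM_011054 had 34.5% to 38.3% of the counts of NM_001025568 in the control and 31.8% to 36.7% in the morphine libraries.

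**Figure D5:**
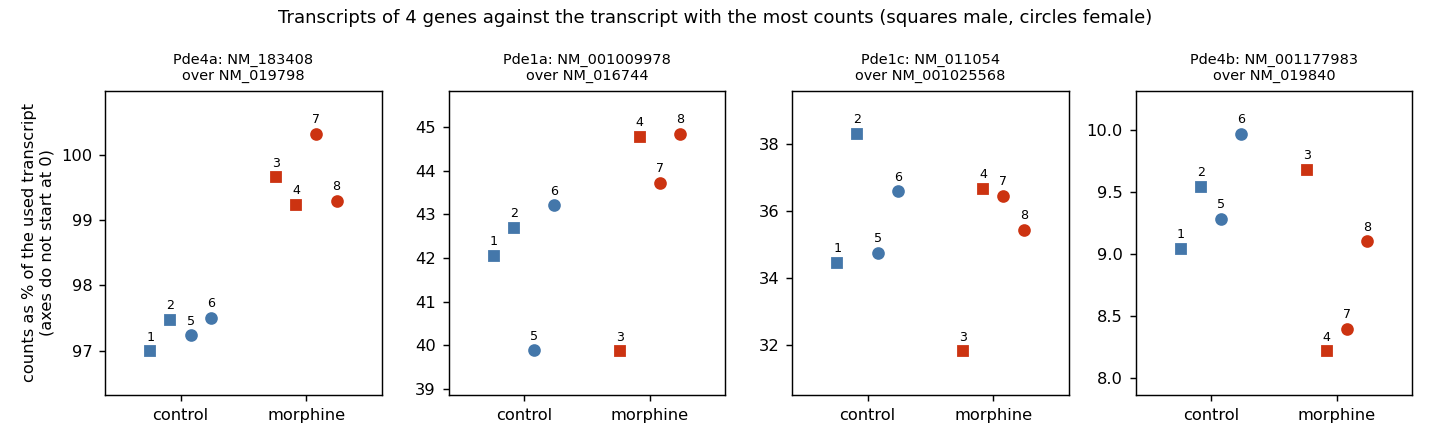
Counts of 1 transcript as a percentage of the used transcript of the same gene, per library, for Pde4a, Pde1a, Pde1c and Pde4b (vertical axes do not start at 0). The control and morphine libraries are apart in Pde4a, at 97.0% to 97.5% and 99.2% to 100.3%, and overlap in the other panels.

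No member passed the test between female and male libraries (0 of 10 called by edgeR, against 0.00528% of all genes, 0 of 10 with an unadjusted P value under 0.05 against 3.1%, and 0 of 10 by DESeq2 against 0.138%). The log2 differences, female minus male, ran from -0.16 (Pde7b) to 0.17 (Pde1a), with standard errors of 0.11 to 0.45. Without control replicate 5 they ran from -0.36 to 0.37, again with 0 called. For the interaction of sex and morphine, 0 of 10 members and 0 of all genes were called (0% by edgeR, with 0 of 10 members and 1.72% of all genes at an unadjusted P value under 0.05, and 0 of 10 members by DESeq2, against 0.0211% of all genes). The interaction terms ran from -0.41 (Pde10a) to 0.22 (Pde8b) with standard errors of 0.23 to 0.93, and from -0.55 to 0.47 without control replicate 5. With 2 libraries per sex and group these terms were imprecise. Whether a difference between the sexes of the size of the main effects could be detected was not tested.

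Around the enzymes, 66 other genes of the cyclic nucleotide pathway were listed in 7 groups, and 64 were in the table. Of these, 1 was called higher (against 0.164% of all genes) and 0 lower (against 0.0317%), and 5 higher and 3 lower had an unadjusted P value under 0.05 (edgeR). The 8 genes are 12.5% of the 64, near the 12.1% of all genes, so their values are given as a description and only that of Adcy1 as a call. DESeq2 called Adcy1 higher and Rapgef3 lower among the 64, a share near the 3.29% of all genes that it called. The gene called was Adcy1, the calmodulin-stimulated adenylyl cyclase, at 313.6, 334.3, 368.3 and 405.9 CPM in the control libraries and 527.8, 579, 601 and 572 CPM in the morphine libraries. Its groups did not overlap, as in 6.55% of all genes, and the log2 fold change was 0.68 (SE 0.10, edgeR adjusted P = 0.0415). The edgeR adjusted P value of Adcy1 was 0.0507 to 0.132 without control replicates 1, 2 or 5 or morphine replicates 4, 7 or 8, and the call held without control replicate 6 or morphine replicate 3. It was made in 9 of 19 alternatives, and was lost also with filterByExpr (log2 fold change 0.66, adjusted P = 0.0517), with the striatal score (0.68, adjusted P = 0.0522), with the telencephalic score (log2 fold change 0.47, adjusted P = 0.616) and with the choroid plexus score (0.49, adjusted P = 1) in the edgeR model. The SE of Adcy1 rose to 0.15 with the telencephalic and 0.16 with the choroid plexus score. The sums of both lists were higher in most morphine libraries, so these 2 models cannot well separate score from morphine. The lost call in them therefore does not show which of the 2 goes with Adcy1.

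The other adenylyl cyclases below an unadjusted P value of 0.05 were Adcy9 (25.5 ± 4.82 and 37.0 ± 7.51 CPM, SD, n = 4 each, log2 fold change 0.54, edgeR adjusted P = 0.227) and Adcy2 (32.4 ± 10.9 and 51.1 ± 16.4 CPM, 0.66, edgeR adjusted P = 0.320). Of the cAMP sensors outside protein kinase A, Rapgef3 (Epac1) was at 26.4, 19.3, 24.3 and 35.2 CPM in the control and 17.5, 14.1, 19.1 and 15.4 CPM in the morphine libraries, and Rapgef4 (Epac2) was at 133.9 ± 18.2 and 163.9 ± 9.39 CPM. The groups of neither gene overlapped, as in 6.55% of all genes, but both genes were named for an unadjusted P value under 0.05. The nearest libraries were at 19.3 and 19.1 CPM in Rapgef3 and both at 155.5 CPM in Rapgef4. The log2 fold changes were -0.67 (SE 0.17) and 0.29 (SE 0.11), with edgeR adjusted P values of 0.152 and 0.309. With DESeq2 the adjusted P value of Rapgef3 was 0.0212, past the threshold.

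All 6 protein kinase A subunits had log2 fold changes below 0, with a median of -0.13, and none was called. The one below an unadjusted P value of 0.05 was Prkar2a (175.1 ± 14.3 and 150.0 ± 12.6 CPM, log2 fold change -0.22, edgeR adjusted P = 0.392). Among the 15 anchors and scaffolds it was Arrb1 (535.2 ± 47.2 and 455.1 ± 29.3 CPM, log2 fold change -0.23, edgeR adjusted P = 0.379), which encodes a beta-arrestin. Arrb2, which encodes the other beta-arrestin, was at 47.1 ± 5.05 and 52.0 ± 5.59 CPM (log2 fold change 0.14, edgeR adjusted P = 0.651). No guanylyl cyclase (8 in the table) and none of the 7 CREB and ICER factors had an unadjusted P value under 0.05. The 14 other phosphodiesterases summed to 113.8 to 128.3 CPM in the control and 121.3 to 128.4 CPM in the morphine libraries. The only one of these below an unadjusted P value of 0.05, Pde6c, had 0 to 1 counts in the control and 2 to 5 in the morphine libraries and is at the limit of detection.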

How the data were processed

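The authors deposited 1 table of raw counts, whole numbers, with a row for each RefSeq transcript and a column for each library. The tool that made it is not given in the sources used here; the submitters' processing notes name mm10 and DESeq2, and the methods describe Salmon, GC bias correction and a gene-level matrix, which this table of 24488 transcripts is not. The plan was written for 1 count per gene, so here the transcript with the highest total stood for each of 18939 genes. All 8 columns matched a labelled sample, 0 columns were left over, and 0 rows lacked a gene name. No 2 libraries of a group agreed within sampling noise (chi-square per degree of freedom of 18.0 or more). Libraries are separate pools of mice, and P values measure the spread between pools. PCR copies are not marked in the counts, so counting error understates the real error.

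The quasi-likelihood test of edgeR 4.0.16 in R 4.3.3 was run with TMM factors and condition as the only term, over genes with a count above 0, with Benjamini-Hochberg adjustment over all genes and an adjusted P value under 0.05 as the call. CPM are the counts scaled to the TMM-normalized library total; log2 CPM used a prior count of 2, and exact permutation tests added 0.5 CPM. Alternatives were DESeq2 1.42.0, limma-voom (limma 3.58.1), filterByExpr or a minimum of 10 counts per library (all 10 members passed both), factors by RLE or upper quartile, sex as a covariate, the sum over transcripts and each library left out. Models with marker scores, and a sex by morphine interaction without control replicate 5, were added after seeing the data. The scripts were tested on simulated data. Gene positions and promoters are from RefSeq on GRCm38.p6, and lengths and exon overlaps from GENCODE vM21 on GRCm38.

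The members, and the lists of pathway genes and markers, were chosen with earlier results of these data known. Genes named are the 10 members, listed pathway genes with an unadjusted P value under 0.05, and for each member the 3 genes with the highest Pearson correlation; marker genes and examples from lists were named after their values were seen. One listed marker and a gene of the correlation ranking are not reported here. Results of lists not described in the report are ranges of summed CPM, control then morphine: medial habenula 300.3 to 397.3 and 248.9 to 393.3, oligodendrocyte 120.8 to 1217 and 562 to 1528, astrocyte 245.9 to 433.9 and 313.9 to 377.8, microglia 0.765 to 4.86 and 1.71 to 2.79, endothelium 2.13 to 6.78 and 3.70 to 5.92.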

Additional observations from a re-analysis of the deposited data

How the results depend on the processing

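The number of phosphodiesterases called was 0 under every alternative run, with a lowest adjusted P value of 0.128 (Pde4b, edgeR, without control replicate 2), and the median log2 fold change of the 10 ran from -0.078 to 0.23. It was below 0 without control replicate 6 (-0.020), morphine replicate 4 (-0.044) or morphine replicate 7 (-0.048), and with the telencephalic (-0.078) or striatal score (-0.00035), and highest without morphine replicate 8. The number of all genes called, 37 by edgeR, was 502 with DESeq2, 23 with limma-voom, 14 with filterByExpr, 15 with at least 10 counts in every library, 110 with sex in the model and 22 with the sum over transcripts. It was 18 with the striatal projection marker score, 1 with the telencephalic pyramidal score and 0 with the choroid plexus score in the model (609 genes at an unadjusted P value under 0.05). Leaving out each library in turn it was 0 to 77, with 0 without morphine replicate 4 (1697 genes unadjusted) or 8 (1664), 1 without control replicate 1, 11 without morphine replicate 7, 20 without control replicate 5 and 77 without control replicate 6 or morphine replicate 3. The cause was not tested. The sums of the telencephalic and choroid plexus lists were higher in most morphine libraries. Models with those 2 scores therefore cannot well separate score from morphine, and few calls are left for that reason alone.

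The sign of the log2 fold change turned for Pde1b with limma-voom (-0.012), the striatal score (-0.026) and the telencephalic score (-0.10), and for Pde1a (-0.50), Pde2a (-0.26) and Pde4a (0.062) with the telencephalic score. Over the fits without 1 library it ranged from -0.14 to 0.25 for Pde1b, from -0.11 to 0.013 for Pde4a and from -0.068 to 0.29 for Pde7b, with no change of sign from 0.067 to 0.49 for Pde1a, 0.32 to 0.80 for Pde2a, -0.57 to -0.19 for Pde1c, 0.11 to 0.31 for Pde8b, 0.16 to 0.91 for Pde10a, -0.40 to -0.22 for Pde4b and -0.24 to -0.11 for Pde4d. Without control replicate 5 the difference between the sexes in Pde8b was -0.0049, and the interaction of sex and morphine was 0.47 for Pde7b, 0.034 for Pde4d, -0.39 for Pde1a and -0.034 for Pde1c. With the choroid plexus score Adcy2 was at -0.16. Pde4b, Pde4d, Pde1c, Pde8b and Pde10a kept their sign between morphine and control in all 19 alternatives, though with the choroid plexus score Pde4d was at -0.00020 and Pde1c at -0.054. No paired analysis was possible because the control and morphine libraries share no replicate number. With 4 libraries a group and the spread of Pde10a, the 95% confidence interval of its fold reached from 0.746 to 3.11.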
